A study of Mus musculus with 6 samples.

Results

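Immunoglobulin variable (V) genes were measured in the spleen CD8a+ leukocytes of WT and miR-144/451 KO mice. The genes described were all genes of the type IG_V_gene in GENCODE M21 whose symbol starts with Ighv (heavy chain), Igkv (kappa light chain) or Iglv (lambda light chain) and whose counts summed to at least 10 over the 6 libraries. Of 44678 genes in the files, 216 were annotated as such V genes, and 191 of these reached 10 counts: 95 of 113 Ighv, 93 of 100 Igkv and 3 of 3 Iglv genes. The 25 V genes below the threshold included 12 with a count of 0 in every library. Ighv1-43, with 10 counts in all, lay just inside the threshold, and Ighv1-62-3, with 9.673 counts, lay just outside it.

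RNA-seq was performed on 3 WT and 3 KO libraries, labelled WT1 to WT3 and KO1 to KO3, and the labels give spleen as the tissue, leukocyte as the cell type and no treatment for every library. The study's methods describe the KO mice as lacking a genomic segment that holds both precursors of miR-144/451, on the C57BL/6J background, and the WT mice as C57BL/6J of the same young adult age range. The deletion is carried by every cell of these mice. The methods describe magnetic sorting of CD8+ T cells with Ly-2 (CD8a) beads and of dendritic cells. They do not say whether the cells of these libraries were obtained by either sort. The paper introduces its transcriptome sequencing with the question whether miR-144/451 represses dendritic cell function, whereas the labels name CD8a+ leukocytes. Nothing in the labels says whether the 3 libraries of a genotype come from separate mice, so the p-values below measure the spread between libraries, which may be technical.

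A V gene encodes most of the variable domain of an antibody chain, the part that contacts antigen. In a developing B cell the RAG recombinase joins 1 Ighv gene to a D and a J gene, and 1 Igkv or Iglv gene to a J gene, so that each B cell and its progeny transcribe a chosen V gene from its promoter at a high level. Plasma cells, which secrete antibody, hold far more of this RNA per cell than resting B cells. T cells instead carry T cell receptor genes that were rearranged while they developed in the thymus. In a bulk library, V gene counts therefore sum over many rearranged alleles, and more B cells or plasma cells cannot be told apart from more V gene RNA per cell.

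The 3 loci lie on different chromosomes of GRCm38. The Ighv genes described spanned chromosome 12 from 113578504 to 116000461, all 95 on the minus strand. The Igkv genes spanned chromosome 6 from 67555497 to 70704177, with 35 genes on the plus strand, which is the strand of the kappa J genes, and 58 on the minus strand. Genes in the orientation of the J genes join by deletion of the DNA between, and the others by inversion. The 3 Iglv genes lay on chromosome 16 from 19085017 to 19260859 on the minus strand.

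The reference sequences of the most used member of each chain are shown to present each chain, and the evenness of kappa usage below was also computed without Igkv1-110. Each is the last 300 bases of exon 2, the V exon proper, read 5′ to 3′ on the coding strand from GENCODE M21 transcripts on GRCm38, and capitals mark the stretch from the last in-frame cysteine codon to the 3′ end, the germline part of the antigen-binding loop that is then cut and joined. Igkv1-110 was read at chr6:68270968-68271267 (plus), Ighv1-26 at chr12:114788372-114788671 (minus) and Iglv1 at chr16:19085017-19085316 (minus).
Igkv1-110: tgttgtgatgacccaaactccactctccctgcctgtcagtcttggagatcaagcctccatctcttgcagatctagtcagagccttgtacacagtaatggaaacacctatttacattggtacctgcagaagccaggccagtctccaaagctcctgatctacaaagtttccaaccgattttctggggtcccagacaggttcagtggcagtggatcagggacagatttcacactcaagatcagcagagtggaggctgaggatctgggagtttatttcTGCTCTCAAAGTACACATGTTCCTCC
Ighv1-26: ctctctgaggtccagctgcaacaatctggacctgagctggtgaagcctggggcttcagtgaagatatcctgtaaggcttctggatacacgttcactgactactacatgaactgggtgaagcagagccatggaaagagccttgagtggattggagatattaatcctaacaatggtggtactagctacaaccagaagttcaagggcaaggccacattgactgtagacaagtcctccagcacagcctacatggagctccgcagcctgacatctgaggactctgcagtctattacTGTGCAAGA
Iglv1: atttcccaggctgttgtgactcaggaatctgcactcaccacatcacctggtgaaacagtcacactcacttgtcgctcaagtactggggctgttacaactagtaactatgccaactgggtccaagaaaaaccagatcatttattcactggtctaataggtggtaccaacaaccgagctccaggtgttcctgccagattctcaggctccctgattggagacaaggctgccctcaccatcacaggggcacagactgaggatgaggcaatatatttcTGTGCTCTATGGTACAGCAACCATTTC

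The last 90 bases of 6 further members are shown for comparison with these, since they are close relatives of the most used genes or had the smallest p-values between KO and WT. Capitals mark the same stretch. Igkv1-117 lies at chr6:68121738-68121827 (plus), Igkv1-135 at chr6:67610419-67610508 (plus), Igkv8-27 at chr6:70171809-70171898 (minus), Ighv1-82 at chr12:115952538-115952627 (minus), Ighv1-81 at chr12:115920279-115920368 (minus) and Iglv2 at chr16:19260401-19260490 (minus).
Igkv1-117: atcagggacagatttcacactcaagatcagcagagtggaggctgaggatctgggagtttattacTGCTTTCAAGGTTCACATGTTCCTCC
Igkv1-135: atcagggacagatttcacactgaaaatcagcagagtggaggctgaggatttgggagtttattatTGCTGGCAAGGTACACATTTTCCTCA
Igkv8-27: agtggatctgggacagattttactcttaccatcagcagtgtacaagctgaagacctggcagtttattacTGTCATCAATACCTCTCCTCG
Ighv1-82: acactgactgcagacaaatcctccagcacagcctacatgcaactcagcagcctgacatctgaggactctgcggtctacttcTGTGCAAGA
Ighv1-81: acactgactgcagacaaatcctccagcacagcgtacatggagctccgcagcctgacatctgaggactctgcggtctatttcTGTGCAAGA
Iglv2: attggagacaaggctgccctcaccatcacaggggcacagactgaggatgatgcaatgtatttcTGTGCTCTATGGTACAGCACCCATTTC

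Several members were near copies of each other. Over their aligned coding parts, Igkv1-110 and Igkv1-117 were identical at 349 of 359 bases (97.2%), and they differed at 4 of the last 90 bases. Iglv1 and Iglv2 were identical at 96.9% of bases, with 3 differences in the last 90. Igkv1-110 and Igkv1-135 shared 78.3% of bases and differed at 10 of the last 90, and Ighv1-81 and Ighv1-82 shared 88.0% and differed at 5. The ending TGTGCAAGA, in which Ighv1-26, Ighv1-81 and Ighv1-82 agree, closed 43 of the 95 Ighv genes described and 46 of the 113 annotated. These 43 genes held 66.0%, 58.2% and 61.9% of Ighv counts in WT1, WT2 and WT3 and 61.4%, 61.9% and 63.7% in KO1, KO2 and KO3, and the genotypes overlapped.

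Near copies bear on the values. When each transcript was cut into all words of 31 bases, a median of 46.1% of a member's words (range 0.0% to 98.1%) also occurred in transcripts of another gene. The shared part was 63.6% for Igkv1-110, 62.6% for Igkv1-117, 38.5% for Ighv1-82 and 19.4% for Igkv8-27. In each library 52 to 83 members had a count with any fractional part in the deposited values (a tolerance of 0), and these members carried 45.3% to 69.4% of the V gene counts. Fractions can arise where reads are divided between genes or transcripts, but the counting program is not given and their origin was not tested. The counts of members with close relatives are therefore uncertain.

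The libraries held 8143971 to 8876570 counts in all. Mir144 and Mir451a, the deleted precursors, had a count of 0 in all 6 libraries, so that the genotype labels could not be checked by them. T cell markers, given as summed CPM (counts scaled by TMM to a common library size), reached 2800, 3690 and 3530 in WT1 to WT3 and 2560, 1980 and 3530 in KO1 to KO3, and Cd8a reached 476 to 1040, so that the marker in the label was present in every library. Markers of other cells were present as well: 12 B cell genes summed to 1660 to 3790 CPM, 8 plasma cell genes to 449 to 999, 5 germinal center B cell genes to 23.0 to 30.6, 6 conventional dendritic cell genes to 188 to 255, 5 plasmacytoid dendritic cell genes to 204 to 222, 5 monocyte and macrophage genes to 996 to 1750 and 5 erythroid genes to 119 to 1550. No marker gene was at 0 in every library, and none passed an adjusted p of 0.05 in the edgeR quasi-likelihood test (Benjamini-Hochberg).

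The summed V gene level did not separate the genotypes. V genes took 0.283%, 0.131% and 0.0956% of all counts in WT1, WT2 and WT3, and 0.17%, 0.258% and 0.145% in KO1, KO2 and KO3. WT1 was the highest library and WT3 the lowest, and the KO libraries lay between them. The shares correspond to 24891, 11584 and 7782 V gene counts in the WT libraries and 14530, 21248 and 12786 in the KO libraries. The 95% Wilson intervals of the 6 libraries, which cover counting error only, did not overlap, and the nearest were 0.128% to 0.133% in WT2 and 0.143% to 0.148% in KO3. The WT mean was 0.17% ± 0.0998 and the KO mean 0.191% ± 0.0592 (SD, n = 3 each, exact two-sided permutation test, p = 0.7, where 0.1 is the smallest p that 3 against 3 libraries allow). The difference changed sign when WT3 or KO2 was left out, from 0.0215 to -0.0156 or -0.012 percentage points.

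The summed level was set beside 1 plasma cell gene, Jchain, chosen after its values were seen, and beside the B cell markers. Jchain, which encodes the chain that joins IgM and IgA into polymers and is abundant in plasma cells, reached 658, 290 and 239 CPM in WT1 to WT3 and 333, 569 and 345 in KO1 to KO3. For each Jchain count there were 4.32, 4.55 and 4.05 V gene counts in WT and 5.05, 4.49 and 4.24 in KO (exact permutation test, p = 0.5). The B cell marker sum was 3390, 2010 and 1930 CPM in WT and 3510, 3790 and 1660 in KO, and V gene counts per marker count ran from 0.48 in KO1 to 0.884 in KO3 (exact permutation test over 3 against 3, p = 0.9). KO1 and KO3 took 0.17% and 0.145% of their counts in V genes at marker sums of 3510 and 1660 CPM. Sdc1, another plasma cell marker, was ordered differently: it reached 13.8, 7.42 and 6.95 CPM in WT and 8.57, 14 and 4.7 in KO, and was lowest in KO3. The part of these cell types in the V gene level was not tested.

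**Figure D1:**
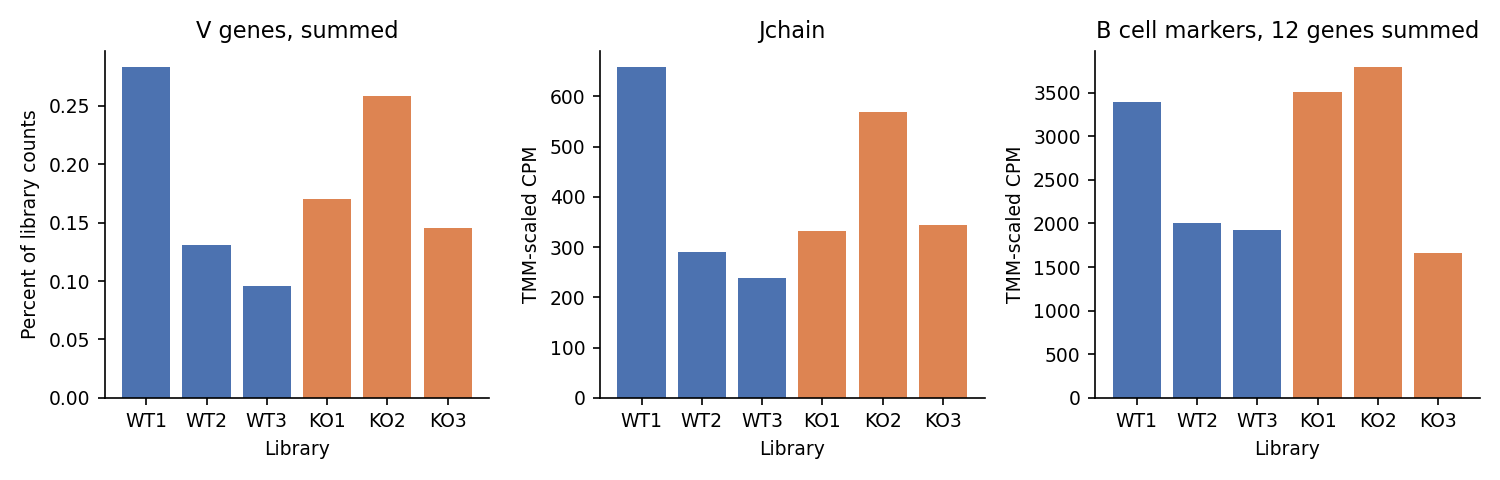
Bars give, for each of the 3 WT (blue) and 3 KO (orange) libraries, the summed V gene counts as a percent of all counts (left), Jchain in TMM-scaled CPM (middle) and the sum of 12 B cell marker genes in TMM-scaled CPM (right), each axis starting at 0. WT1 and KO2 were the highest libraries for V genes (0.283% and 0.258%) and for Jchain (658 and 569 CPM), while KO1 joined them for the B cell markers (3510 CPM).

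The genes whose log2 CPM was most like that of the summed V genes were, outside the immunoglobulin loci and among 9717 genes, Trim34a (Pearson r 0.991), Rbmxl1 (0.989), Med17 (0.989), Hmgn5 (0.983) and Snx5 (0.982). Jchain ranked 6 (r 0.98) and Cd79a, a signaling chain of the B cell receptor, ranked 703 (r 0.777). These r describe 6 libraries that share their scaling. Trim34a ran from 70.0 to 87.6 CPM and Hmgn5 from 15.4 to 23.7 CPM, while Jchain ran from 239 to 658 CPM.

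Kappa genes took the largest part of the V gene counts in every library, followed by heavy chain and lambda genes. Heavy chain genes took 40.4%, 42.7% and 44.1% of V gene counts in WT1 to WT3 and 42.5%, 44.5% and 44.5% in KO1 to KO3, with means of 42.4% ± 1.86 and 43.8% ± 1.16 (SD, n = 3 each, exact permutation test, p = 0.3). Kappa genes took 49.2% to 54.7% and lambda genes 4.55% to 6.36%. Of light chain counts, lambda made up 8.15%, 10.4% and 10.8% in WT and 11%, 8.2% and 11.5% in KO (exact permutation test over 3 against 3, p = 0.5). WT1 and KO2, the libraries with the most V gene counts, had the lowest lambda shares. The chains were also counted against their own constant region genes, and there were 0.14 to 0.193 Ighv counts, 0.533 to 0.747 Igkv counts and 0.384 to 0.592 Iglv counts for each constant region count.

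Usage, the share of all V gene counts that a member takes, was broad. A library held counts for 184 to 189 of the 191 members, and the 25 to 28 most used members made up 50% of its V gene counts. A mean share of at least 1% was reached by 24 members, and 47 members stayed under 0.1%. At these depths 3 counts equal 0.0121% to 0.0386% of the V gene counts, and a share of 1% carries a 95% Wilson interval of 0.12 to 0.22 percentage points to either side. The order of members was much alike between libraries: Spearman's rho over the Ighv members was 0.883 to 0.929 for the 6 pairs of the same genotype and 0.878 to 0.919 for the 9 pairs of different genotypes, and over the Igkv members 0.862 to 0.942 and 0.866 to 0.931. Pearson's r of the shares was 0.802 to 0.922 within and 0.759 to 0.905 between genotypes for Ighv, and 0.876 to 0.96 within and 0.798 to 0.899 between genotypes for Igkv. These are correlations across genes, which are not independent replicates.

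Igkv1-110 was the most used member overall. It took 8.08%, 5.36% and 7.46% of V gene counts in WT1, WT2 and WT3, and 4.16%, 3.83% and 3.87% in KO1, KO2 and KO3. The WT range lay above the KO range. It was the leading V gene of each WT library and of no KO library, where Iglv1 led KO1 (4.36%) and Igkv1-117 led KO2 (4.28%) and KO3 (4.26%). On the scale of the whole library the genotypes overlapped, with 229, 70.9 and 72.1 CPM in WT and 69.9, 97.8 and 56.7 CPM in KO. The log2 fold change of KO against WT was -0.73 (SE 0.45, adjusted p = 0.818, edgeR quasi-likelihood test with the Benjamini-Hochberg method), and it became 0.06 without WT1.

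The near copy Igkv1-117 overlapped between genotypes. Its share was 2.91%, 4.0% and 4.4% in WT and 4.13%, 4.28% and 4.26% in KO. The third large member of the Igkv1 subfamily, Igkv1-135, took 2.24%, 4.72% and 3.16% in WT and 2.48%, 1.9% and 2.44% in KO, with WT2 the highest library, and overlapped as well.

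Iglv1 was the most used lambda gene in every library, with 55.6% to 74.0% of lambda counts. Its share of V gene counts was 2.94%, 4.39% and 3.45% in WT and 4.36%, 2.89% and 3.54% in KO, and the means were 3.6% ± 0.737 and 3.6% ± 0.738 (SD, n = 3). Iglv2, its near copy, took 1.06%, 0.932% and 1.71% in WT and 1.19%, 0.888% and 2.15% in KO. WT3 and KO3 were the highest libraries for Iglv2, each within its own genotype. Iglv3 took 0.608% to 0.861%.

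Among heavy chain genes, Ighv1-26 was used most on average. It took 2.76%, 2.07% and 2.94% of V gene counts in WT and 2.64%, 2.76% and 2.25% in KO. It led the heavy chain in WT1, KO1 and KO2 with 6.83%, 6.21% and 6.19% of Ighv counts, whereas Ighv1-81 led WT3 (6.84%) and KO3 (6.41%) and Ighv3-6 led WT2 (5.28%). Ighv1-81 took 1.22%, 2.2% and 3.02% of V gene counts in WT and 1.89%, 2.0% and 2.85% in KO, and its WT libraries were farther apart than its KO libraries. The usage of Ighv1-55 was even, at 1.3% to 1.64% in WT and 1.51% to 1.96% in KO.

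The remaining members among the 12 most used differed in direction. Ighv1-64 took 2.24%, 1.92% and 1.71% in WT and 1.48%, 1.38% and 1.67% in KO, with all KO libraries below all WT libraries. Igkv4-59 took 1.42%, 1.33% and 1.03% in WT and 2.12%, 1.62% and 2.84% in KO, with all KO libraries above. Igkv10-96 took 2.46%, 2.17% and 1.67% in WT and 1.73%, 3.41% and 2.7% in KO, and the genotypes overlapped. On the CPM scale all 3 of these genes overlapped between genotypes.

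**Figure D2:**
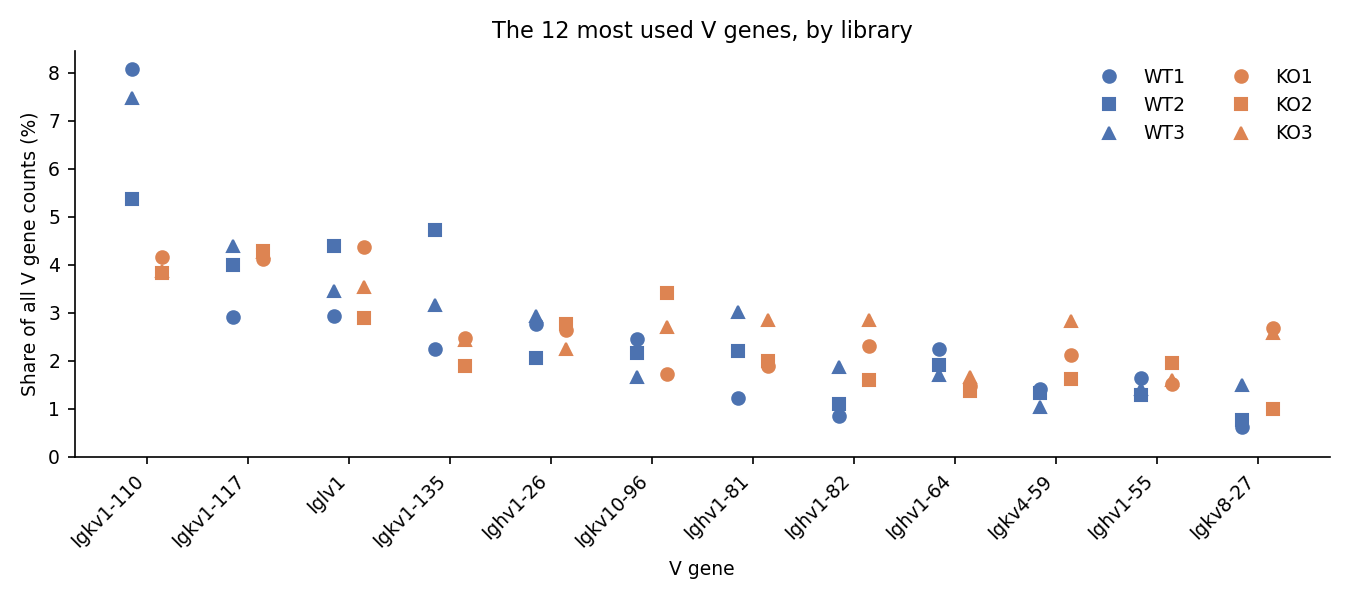
Points give the share of all V gene counts (y axis, percent, starting at 0) of the 12 members with the largest mean share (x axis), 1 point for each WT (blue) and KO (orange) library, with the marker shape showing the replicate number. Igkv1-110 lies at 5.36% to 8.08% in WT and at 3.83% to 4.16% in KO, and 9 of the 12 members overlap between genotypes.

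No V gene passed the test between KO and WT. Of the 155 members with enough counts to be tested (78 Ighv, 74 Igkv and 3 Iglv), 0 had an adjusted p under 0.05 in the edgeR quasi-likelihood test (Benjamini-Hochberg over 13024 genes), of which 4 (0.0307%) did, and the members' adjusted p ran from 0.274 to 0.999. At an unadjusted p under 0.05 there were 12 members (7.74%), 10 higher and 2 lower in KO, against 6.25% of all genes tested. This number moved with the libraries, to 49 of 157 tested without WT1, 8 of 158 without WT2, 7 of 159 without KO2 and 19 of 159 without KO3. It stayed at 12 without WT3 or KO1. The share of all genes at this p was not counted in these fits, so the numbers have no background beside them. limma voom called 0 members and 3 of the 13024 genes, and DESeq2 called 2 members and 56 of the 13024 genes. The fold change was above 0 for 109 members and below 0 for 46, that is, 70.3% above against 50.6% of all genes, and its median was 0.29 on the log2 scale against 0.003.

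The share of members above 0 depended on single libraries. Above 0 lay 56 of 78 Ighv genes (median log2 fold change 0.30), 50 of 74 Igkv genes (0.26) and 3 of 3 Iglv genes (0.18). WT3 was the lowest library for 107 of the 191 members, KO2 the highest for 89 and WT1 the highest for 72. The median log2 fold change of the members was 0.75 without WT1, 0.12 without WT2, -0.03 without WT3 and -0.09 without KO2. WT3 and KO2 were also the lowest library of all and the highest KO library in the summed V gene level. The B cell markers leaned the same way, with 12 of 12 above 0 and a median of 0.28, as did 6 of the 7 plasma cell markers tested (0.15), 6 of 6 conventional dendritic cell markers (median 0.48), 4 of 5 monocyte and macrophage markers (0.38), 5 of 5 erythroid markers (1.1) and 3 of 5 germinal center B cell markers (0.09). The T cell markers leaned the other way, with 7 of 8 below 0 and a median of -0.3, and 4 of 5 plasmacytoid dendritic cell markers lay below 0 (median -0.09). None of these markers passed the test, and their part in the members' lean was not tested.

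**Figure D3:**
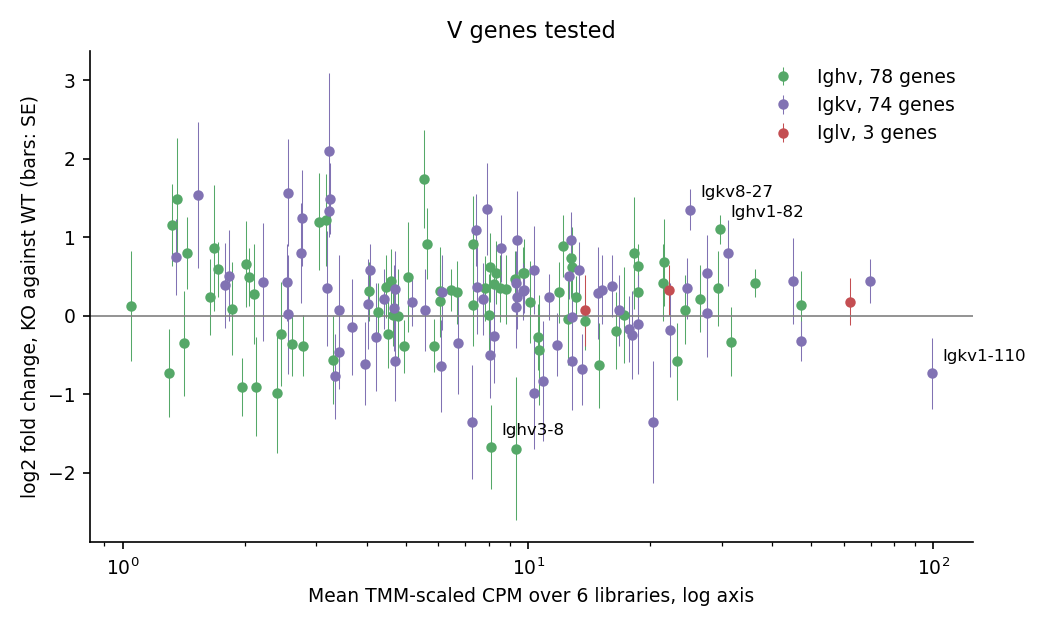
Each point is 1 of the 155 members tested, with the mean TMM-scaled CPM over 6 libraries on a log x axis, the log2 fold change of KO against WT on the y axis and bars of 1 standard error, in green for Ighv (78), purple for Igkv (74) and red for Iglv (3). Of the points, 109 lie above 0 and 46 below, and Ighv1-82 and Igkv8-27 stand above 1 (SE 0.18 and 0.26, derived from the test statistic).

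Ighv1-82 had the smallest p-value of the members. It reached 24.0, 14.5 and 18.1 CPM in WT1, WT2 and WT3 and 38.8, 41.1 and 41.7 CPM in KO1, KO2 and KO3, with 127 to 210 counts per WT library and 335 to 364 per KO library. All KO libraries lay above all WT libraries, and the KO libraries were close together. The log2 fold change was 1.10 (SE 0.18), with an adjusted p of 0.274 in the edgeR quasi-likelihood test (Benjamini-Hochberg). DESeq2 gave an adjusted p of 0.000137, and edgeR without the filter on low counts gave 0.0388. As a share of V gene counts the genotypes overlapped, with 0.844%, 1.1% and 1.88% in WT and 2.3%, 1.61% and 2.85% in KO. Its neighbour in the locus and in sequence, Ighv1-81, had a log2 fold change of 0.42 (SE 0.18), with an adjusted p of 0.786 in the same edgeR test.

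Igkv8-27 came next. It reached 17.6, 10.3 and 14.5 CPM in WT and 45.1, 25.5 and 37.7 CPM in KO, without overlap. The log2 fold change was 1.35 (SE 0.26), with an adjusted p of 0.337 in the edgeR quasi-likelihood test and 0.000397 in DESeq2 (both Benjamini-Hochberg). Its share was 0.619%, 0.777% and 1.5% in WT and 2.69%, 0.998% and 2.58% in KO, and WT3 lay above KO2. The 9 members of the Igkv8 subfamily together took 4.6%, 3.9% and 5.12% in WT and 7.04%, 4.46% and 5.43% in KO, which overlapped.

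Among tested members whose CPM ranges did not overlap, the 3 others with the largest positive fold changes stood at low levels. Ighv1-42 reached 4.11, 1.48 and 1.99 CPM in WT and 4.51, 16.6 and 4.47 in KO, and its log2 fold change of 1.74 (SE 0.62) was 0.82 without KO2, and 0.82 to 2.29 without any 1 library. Igkv3-1, the kappa member nearest to the J genes, reached 1.26, 1.37 and 2.48 CPM in WT and 3.24, 7.46 and 3.66 in KO (log2 fold change 1.49, SE 0.45). Igkv4-58 reached 2.51, 1.71 and 1.24 CPM in WT and 4.75, 4.33 and 4.81 in KO, a close set of KO values with a log2 fold change of 1.33 (SE 0.33). The adjusted p of these genes in the edgeR quasi-likelihood test (Benjamini-Hochberg) was 0.751, 0.683 and 0.547.

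On the CPM scale, 2 of the members tested were lower in all KO libraries. Ighv3-8 reached 7.07, 23.3 and 6.58 CPM in WT and 3.94, 5.17 and 2.52 in KO, with WT2 far above the rest (log2 fold change -1.67, SE 0.53). Without any 1 library its log2 fold change lay between -1.98 and -0.82. Ighv14-1 reached 3.19, 2.28 and 2.23 CPM in WT and 1.04, 1.8 and 1.26 in KO (log2 fold change -0.91, SE 0.37). The adjusted p was 0.712 and 0.786 in the edgeR quasi-likelihood test (Benjamini-Hochberg).

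Counted without a test, the CPM ranges of KO and WT did not overlap for 13 of the 191 members, 9 higher and 4 lower in KO. Of the 155 tested, 10 did not overlap (6.45%), 8 higher and 2 lower, against 11.5% of all genes tested, of which 5.83% were higher and 5.64% lower. On the scale of shares, 33 members did not overlap, 14 higher and 19 lower, and 7 of them, 3 higher and 4 lower, were also without overlap in CPM. Of the members tested, 27 (17.4%) did not overlap in share. Among all genes the same count per V gene count was without overlap for 1.31%, but there the other genes carry the spread of the V gene total as their denominator, so that the 2 percentages are not alike.

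Some members stood high in 1 library. Ighv3-8 took 1.76% of V gene counts in WT2, 7.30 times its median share, and 0.172% to 0.681% elsewhere. Ighv1-66 took 1.28% in WT1, 4.84 times its median, with 319 counts there and 22 to 43 in the others. Igkv3-4 took 2.44% in WT1 (607 counts) and 0.48% to 0.959% elsewhere. Igkv4-70 and Igkv4-55 were also highest in WT1, at 0.823% and 1.17%, and Ighv1-74 was highest in WT3, at 0.784%. These 6 members had the largest ratio of highest to median share among members with a mean share of at least 0.3%. Below that share, Igkv4-90 reached 6.33 times its median in KO2, with 113 counts there and 7 to 12 in the others, and Ighv1-37 reached 4.97 times its median in KO2, with 20 counts against 1 to 3.

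Evenness of usage was described by the effective number of genes, the exponential of the Shannon entropy of the shares, which equals the number of genes if all were used alike. For the heavy chain it was 52.0, 56.0 and 55.3 in WT and 56.7, 55.9 and 52.1 in KO (exact permutation test over 3 against 3, p = 0.7). For the kappa chain it was 43.5, 45.5 and 41.6 in WT and 48.4, 50 and 46.1 in KO, and all KO libraries lay above all WT libraries. The kappa means were 43.5 ± 1.95 and 48.2 ± 1.96 (SD, n = 3), with p = 0.1 by the exact permutation test, the smallest p possible, and 0.35 after Benjamini-Hochberg adjustment over the 7 usage measures. The kappa difference of 4.69 was 0.159 without Igkv1-110 (exact permutation test, p = 0.9) and -1.94 without the Igkv1 genes (exact permutation test, p = 0.4). Both removals take out Igkv1-110, whose share already separated the genotypes, and the second was chosen after seeing the data. They are therefore no independent test of where the difference lies.

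Subfamilies are groups of V genes of related sequence, given by the number before the dash in the symbol. Of 36 subfamilies, 22 had a mean share of at least 1%, and no difference between genotypes passed the exact permutation test after adjustment over these 22 (smallest adjusted p = 0.55). Ighv1, the largest with 48 members, took 27.0%, 25.9% and 28.9% in WT and 27.0%, 28.4% and 29.3% in KO. Igkv1, with 8 members, took 14%, 14.8% and 15.5% in WT and 11.4%, 10.8% and 11.4% in KO, without overlap. Its other 7 members, without Igkv1-110, took 5.95%, 9.45% and 8.0% in WT and 7.25%, 6.94% and 7.49% in KO, and these overlapped. Igkv4, with 25 members, took 7.2%, 6.16% and 4.42% in WT and 7.23%, 7.54% and 8.66% in KO, a narrow separation. Igkv14 (1.41% to 1.88% in WT, 2.07% to 2.4% in KO) and Ighv8 (1.13% to 1.41% in WT, 1.61% to 2.07% in KO) were also higher in all KO libraries.

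**Figure D4:**
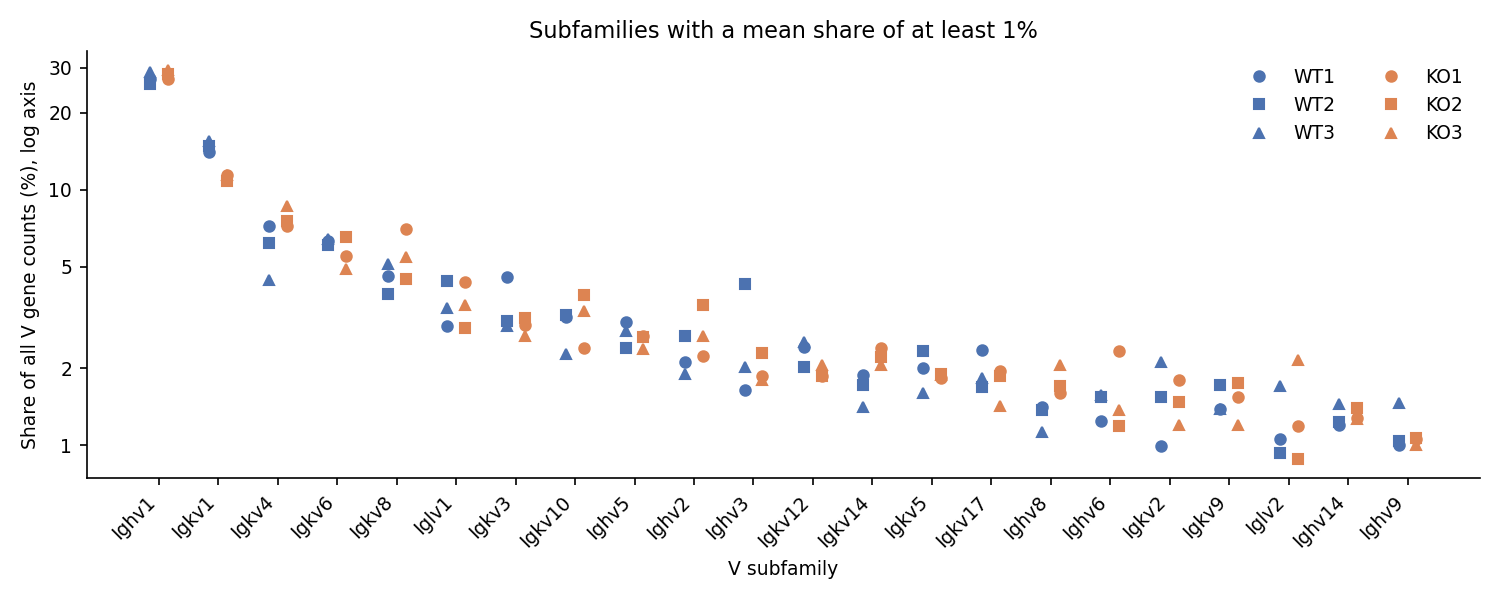
Points give the share of all V gene counts (log y axis, percent) of the 22 subfamilies with a mean share of at least 1%, 1 point for each WT (blue) and KO (orange) library, with the marker shape showing the replicate number. Igkv1 is lower in the KO libraries (10.8% to 11.4% against 14% to 15.5%), Igkv4, Igkv14 and Ighv8 are higher in all of them, and the other 18 overlap.

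By position in the heavy chain locus the genotypes overlapped. The 56 Ighv members on the D-proximal side of the midpoint of the locus took 49.7%, 55.3% and 51.4% of Ighv counts in WT and 53.0%, 50.9% and 50.4% in KO (exact permutation test over 3 against 3, p = 0.8), and the 39 distal members took the rest. When the locus was divided into 4 segments of equal length (605 kb), p lay between 0.5 and 0.9 in the exact permutation test.

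In the kappa locus the 35 members in the orientation of the J genes took 52.1%, 53.8% and 56.6% of Igkv counts in WT and 48.6%, 47.5% and 45.7% in KO. The means were 54.2% ± 2.27 and 47.2% ± 1.45 (SD, n = 3) without overlap, with p = 0.1 by the exact permutation test and 0.35 after Benjamini-Hochberg adjustment over the 7 measures. Igkv1-110, Igkv1-117 and Igkv1-135 all have this orientation. Without Igkv1-110 the difference was -4.33 percentage points (exact permutation test, p = 0.2), and without the Igkv1 genes it was -3.81, from 36.6% to 32.8% (exact permutation test, p = 0.1). The segment farthest from the J genes, the last of 4 of 787 kb each, holds these 3 genes and took 36.6%, 40.7% and 43.2% of Igkv counts in WT and 35.9%, 34.2% and 33.9% in KO (exact permutation test, p = 0.1, adjusted over the 8 segments 0.8).

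**Figure D5:**
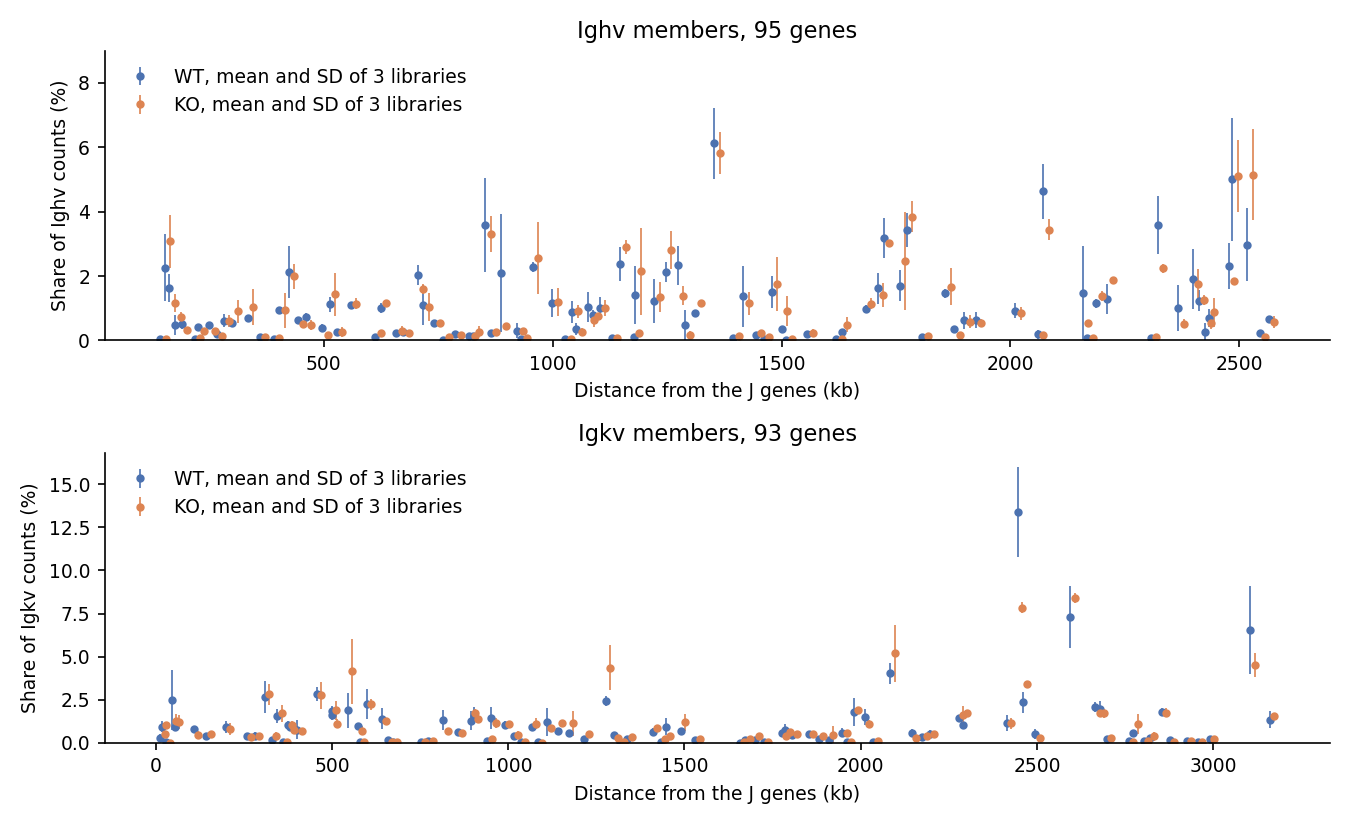
Points give the mean share of the chain's counts (y axis, percent) of each of the 95 Ighv members (top) and 93 Igkv members (bottom) against the distance from the J genes (x axis, kb), for WT (blue) and KO (orange), which are drawn slightly apart sideways, with bars of 1 SD over 3 libraries cut off at 0. Used members are spread along both loci, and Igkv1-110 and Igkv1-117, the kappa members with the highest means in both genotypes, lie 2452 and 2601 kb from the J genes.

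The genes that work with V genes were read from the same fit. Of 26 B cell receptor and signaling genes, 0 passed an adjusted p of 0.05 in the edgeR quasi-likelihood test (Benjamini-Hochberg), against 0.0307% of all genes tested. An unadjusted p under 0.05 was reached by 1 of them, against 6.25% of all genes. Above 0 lay 22 and below 0 lay 4, with a median log2 fold change of 0.23, while 50.6% of all genes lay above 0. Whether this lean depended on single libraries was not tested. Cd79a reached 553, 328 and 316 CPM in WT and 568, 620 and 252 in KO (log2 fold change 0.27), and Cd79b, its partner, 360, 195 and 205 in WT and 350, 365 and 172 in KO (0.22). KO3 was the lowest library for both, whereas WT3 was the lowest for the summed V genes.

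The genes of the recombination machinery were mixed in direction. Of 14 V(D)J recombination genes tested out of 15 listed, 0 passed the same adjusted threshold in edgeR. An unadjusted p under 0.05 was reached by 0 of them, against 6.25% of all genes tested. There were 6 above 0 and 8 below, with a median of -0.03. Rag1, a subunit of the recombinase, was counted at 22, 7 and 14 in the WT and 10, 30 and 20 in the KO libraries. Rag2, the other subunit, had 1 count in KO1 and 0 in the other libraries. Dntt, which adds bases at the V(D)J joints, was counted at 37, 47 and 37 in the WT and 40, 9 and 56 in the KO libraries, with KO2 the lowest.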

How the data were processed

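RNA-seq libraries of 3 WT and 3 KO samples, as labelled, were analysed. Expected counts, which can be fractions, were deposited by the authors for each Ensembl gene, and this unit was read from the values. The labels' processing notes name GRCm38 and mm10, and the aligner, counter and use of strand are not given in the sources used here. Libraries totalled 8143971 to 8876570 counts, and 44121 of 44678 identifiers were matched to GENCODE M21 on GRCm38.

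V gene shares were computed from the counts as deposited. Counts were then rounded and fitted with edgeR 4.0.16 in R 4.3.3 (TMM, filterByExpr with a minimum count of 10 and total of 15, quasi-likelihood test, Benjamini-Hochberg adjustment over 13024 genes, threshold 0.05). Alternatives were DESeq2 1.42.0, limma 3.58.1 voom, upper-quartile normalization, no filter, the replicate number as a block, each library left out and other member rules. The SE of a log2 fold change was its absolute value divided by the square root of the quasi-likelihood F statistic. It therefore restates the test and is no separate measure of precision. Single measures were compared with exact two-sided permutation tests (scipy 1.17.1). The fit was tested on simulated data. Named members were the 12 most used, among tested members with CPM ranges that do not overlap the 4 highest and up to 4 lowest log2 fold changes (2 were below 0), the 6 with the largest ratio of highest to median share, and the leading member of each chain in each library. Likeness to the summed V genes used a mean log2 CPM of at least 3. The members, lists and rules were chosen with earlier results of these data known. Igkv1 without Igkv1-110, Iglv2, Iglv3, Igkv4-90 and Ighv1-37, and the sequences shown, were chosen after their values were seen.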

Additional observations from a re-analysis of the deposited data

How the results depend on the processing

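No alternative changed the side of the threshold for a measure compared by permutation, and none could, since no such p can pass it with 3 or fewer libraries a group. The number of members called was 0 with upper-quartile normalization, limma voom and each library left out, 1 without the filter on low counts (Ighv1-82), 1 with the replicate block (Igkv8-27, adjusted p = 0.0462 in edgeR) and 2 in DESeq2 on the same 13024 genes, the cause of which was not tested. Over all genes these settings called 12, 9 and 56 genes against 4, limma voom 3, and the fits without 1 library 2 to 94, with 94 without KO3. Members without overlap numbered 33 by share against 13 by CPM. The replicate numbers gave no clear sign of pairing. The deviations of same-numbered libraries correlated at -0.0101, -0.199 and 0.111, so among these pairs only WT3 and KO3 passed 0.1. Pairs of different number reached 0.293 (WT1 and KO2) and 0.235 (WT2 and KO3), and neither WT1 nor WT2 correlated best with its own number. With 3 libraries a group these correlations cannot settle whether the samples were paired. The effective number of Ighv genes turned from 0.46 to -0.518 with a minimum of 100 counts, and that of Igkv genes from 4.69 to -1.94 without the Igkv1 genes, an alternative chosen after seeing the data, as were the scalings to Jchain and B cell markers. Leaving out 1 library gave KO minus WT differences of -0.768 to 1.89 Ighv genes, -0.345 to 1.48 percentage points for lambda, -1.93 to 0.848 for the D-proximal share and -0.0156 to 0.0782 for the summed level. For the heavy chain share it gave 0.432 to 2.28 percentage points against 1.42 with all libraries. That difference was 0.063 without the most used member of each chain. Log2 fold changes ranged from -1.02 to 0.06 for Igkv1-110 (0.06 without WT1), -0.11 to 0.53 for Iglv1 (-0.11 without WT3), -0.21 to 0.82 for Ighv1-26 (-0.12 without WT2 or WT3, -0.21 without KO2), -0.16 to 1.2 for Igkv10-96 (-0.16 without KO2), -0.68 to 0.42 for Ighv1-64 (0.42 without WT1) and -0.09 to 1.09 for Ighv1-55 (-0.09 without KO2). They ranged from -2.19 to 0.49 for Ighv1-66, -1.86 to 0.33 for Igkv3-4, -1.82 to 0.04 for Igkv4-70 and -1.32 to 0.86 for Igkv4-55, each above 0 only without WT1, and from -0.27 to 0.46 for Ighv3-6 (-0.14 without WT3, -0.27 without KO2). The other tested members named by the rules kept their direction in every setting run. With 3 libraries a group, no permutation p can fall below 0.1, and with 1 left out none below 0.2.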

Other observations

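V pseudogenes, which were not among the genes described, were close to absent. Of 130 annotated, 99 had a count of 0 in every library and 6 reached 10 counts in all. Their counts summed to 59, 10 and 4 in WT1, WT2 and WT3 and to 24, 61 and 17 in KO1, KO2 and KO3, which equals 0.0514% to 0.285% of the V gene counts. WT1 and KO2, the libraries with the most V gene counts, were also the highest here. Igkv2-116 held 33, 5 and 0 of these counts in WT and 2, 39 and 5 in KO.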
